A study of Mus musculus with 4 samples.

Results

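The matrix metalloproteinases (MMPs) described here are 9 mouse genes chosen by name among the MMPs that lie outside the chromosome 9 cluster holding Mmp3: the gelatinases Mmp2 and Mmp9, the membrane-type enzymes Mmp14, Mmp15, Mmp16 and Mmp17, and Mmp11, Mmp19 and Mmp23. They are 9 of 35580 genes in the deposited tables, and all 9 were found. RNA sequencing compared the stromal vascular fraction's Mmp3-positive and Mmp3-negative cells, this fraction being what adipose tissue releases apart from its adipocytes. The mice were wild-type (WT) C57BL/6, the tissue was subcutaneous fat, and the groups shared this strain, genotype and tissue. There were 2 libraries per group, 4 in all, and nothing in the labels said that they came from separate animals. The p-values therefore measure only the spread between these libraries, which may be technical. Age, sex, the number of mice pooled and, beyond a reagent code, the way the cells were separated are not stated in the labels.

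MMPs are zinc-dependent proteases that cut collagens, laminins and other matrix and surface proteins. Most are made as inactive precursors whose prodomain blocks the zinc until it is removed by furin-like convertases inside the cell or by other proteases outside it. At the cell surface Mmp14 binds the inhibitor Timp2, and this complex captures and activates the precursor of Mmp2. In white adipose tissue Mmp14 is known as the main pericellular collagenase of progenitors and developing adipocytes.

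The part of the sequence that the 9 genes share is the stretch of 33 coding bases for the zinc-binding motif of the metalloproteinases. It encodes a histidine and a glutamate followed by a histidine, a glycine and a histidine at fixed spacing. A search of the longest annotated coding sequence of each gene found this motif in frame in 68 of 21852 protein-coding genes (0.311%), of which 22 were MMPs and 46 were other genes. It was present once in each of the 9 genes. The stretches of 6 of them are shown to compare the gelatinases, the most abundant membrane-type enzyme and the 3 other secreted or type II membrane enzymes. They are from GENCODE M21 transcripts on GRCm38, 5′ to 3′ on the coding strand, with the codons of the 5 fixed residues in capitals.
Mmp2, chr8:92839279-92839311, plus strand, exon 8: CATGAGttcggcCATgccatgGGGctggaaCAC
Mmp9, chr2:164951133-164951165, plus strand, exon 8: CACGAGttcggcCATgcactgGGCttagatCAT
Mmp14, chr14:54437627-54437659, plus strand, exon 5: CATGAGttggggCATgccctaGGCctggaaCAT
Mmp11, chr10:75926931-75926963, minus strand, exon 5: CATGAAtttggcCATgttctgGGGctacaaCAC
Mmp19, chr10:128795673-128795705, plus strand, exon 5: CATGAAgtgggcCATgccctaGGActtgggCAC
Mmp23, chr4:155651528-155651560, minus strand, exon 5: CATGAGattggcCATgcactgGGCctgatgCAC

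Over this stretch Mmp14 shared 29 of 33 bases with its membrane-type relative Mmp16, as did Mmp2 with Mmp15, the highest identity of any pair among the 9 genes (87.9%). Mmp2 and Mmp9 shared 25 of 33 bases (75.8%). The lowest identity was 63.6%, found for Mmp9 with Mmp17 and with Mmp19 and for Mmp11 with Mmp17. Part of every identity was set by the search itself, which required codons for the fixed residues shown in capitals. The motif began at codon 403 in Mmp2 and codon 401 in Mmp9, and between codon 212 (Mmp23) and codon 255 (Mmp15) in the others. The gelatinases carry fibronectin type II repeats, a collagen-binding insert, ahead of this motif, which the other members lack.

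The libraries held between 17693755 and 20286221 estimated counts, and 14185 genes were tested. Mmp3, which defined the groups, stood at 106 and 131 CPM in the Mmp3-negative and at 4161 and 3409 CPM in the Mmp3-positive libraries, so it went with the labels. Here CPM is the count scaled to library size with factors from the trimmed mean of M-values (TMM). Across all genes 1 was called higher (0.00705% of those tested) and 2 lower (0.0141%), 3 in all (0.0211%), at an adjusted p under 0.05 in edgeR's quasi-likelihood test. Summed stromal fibroblast markers, all 12 of them tested, stood at 21196 to 30349 CPM in the Mmp3-negative and 29266 to 37033 CPM in the Mmp3-positive libraries, so these stromal defining genes were present in both groups. Taken singly, 11 of these 12 had a positive log2 fold change, with a median of 0.48 against 0.02 over all genes tested. The libraries of the groups did not overlap for 8 of them on the higher side and 0 on the lower side. That stands beside 22.5% and 17.3% of all tested genes. The marker sums of mural, endothelial and macrophage cells differed more. Summed mural markers (10 of 10 tested) stood at 763 to 828 against 106 to 112 CPM, endothelial markers (7 of 8 tested) at 282 to 406 against 215 to 224 CPM, and macrophage markers (7 of 8 tested) at 117 to 247 against 28.5 to 30.6 CPM. In edgeR 0 markers of these 4 lists passed the threshold; at an unadjusted p under 0.05 there were 3 stromal, 6 mural, 3 endothelial and 2 macrophage markers, where 8.87% of all tested genes had such a p. Among the 9 neutrophil markers S100a8, S100a9, Ly6g, Elane and Ltf had 0 counts in all 4 libraries. The macrophage marker Adgre1 had 0 counts in both Mmp3-positive libraries. The macrophage marker Mrc1 and the endothelial marker Emcn had 0 counts in every library but Mmp3-positive replicate 2, where they had 29 and 63. The part of these cell types in the metalloproteinase differences below was not tested, and in such bulk samples fewer cells of a type and less RNA per cell cannot be told apart.

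Of the 9 genes, 8 passed the filter on low counts and 0 were called in either direction by edgeR with all 4 libraries. Without Mmp3-negative replicate 2 there were 2 called higher, Mmp11 and Mmp19, and 0 lower, beside 1.45% and 0.709% of all genes. Without Mmp3-negative replicate 1 there were 0 and 0, beside 1.44% and 0.602%. Both of these fits took their spread from the Mmp3-positive pair alone. Its median absolute log2 difference over genes was 0.501, against 0.795 for the Mmp3-negative pair. With all 4 libraries the edgeR adjusted p ran from 0.48 for Mmp19 to 0.999 for Mmp15. At an unadjusted p under 0.05 there was 1 of the 8, Mmp19, beside 8.87% of all genes. The DESeq2 Wald test called 1 member, Mmp19, higher and 0 lower, beside 5.46% and 4.18% of all genes. The median log2 fold change over the 8 was -0.05 (range -2.25 to 1.58), against 0.02 over all genes tested. The libraries of the groups did not overlap for Mmp2, Mmp11 and Mmp19 on the higher side and for Mmp9, Mmp17 and Mmp23 on the lower side. That is 3 and 3 of 8, beside 22.5% and 17.3% of all tested genes. With so few members this is a description and singles out no direction for the family.

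**Figure D1:**
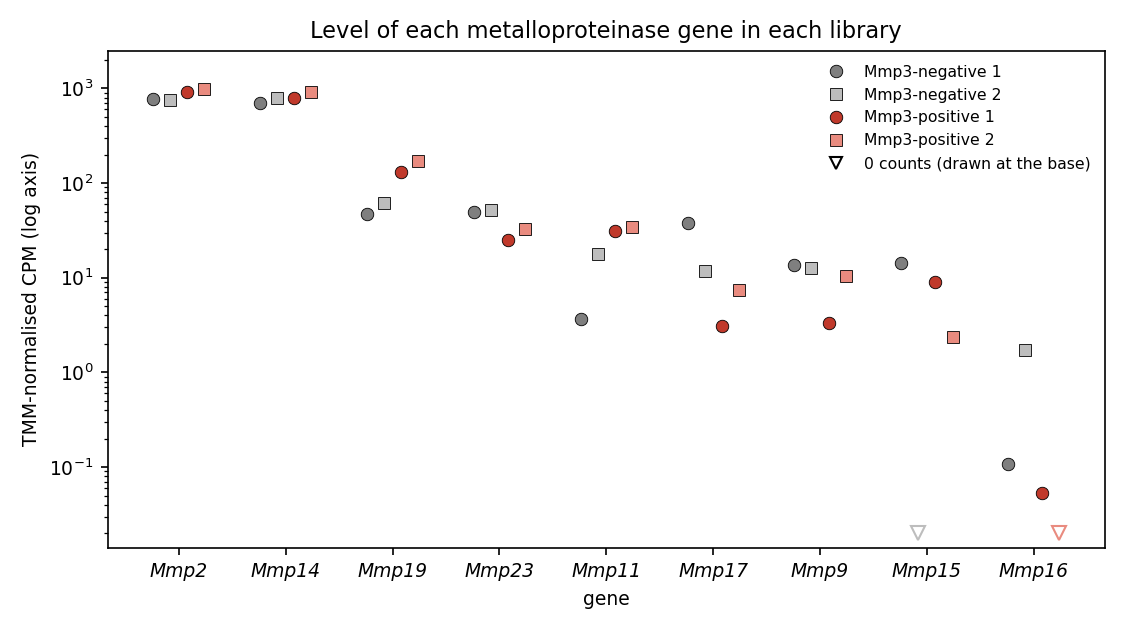
TMM-normalised CPM (log axis) of the 9 genes, 1 point per library, grey for Mmp3-negative and red for Mmp3-positive, circles for replicate 1 and squares for replicate 2, with 0 counts drawn as open triangles at the base. Mmp2 and Mmp14 stand between 696 and 996 CPM in all libraries, Mmp19 is higher in both Mmp3-positive libraries, and the Mmp15 and Mmp16 points are scattered down to 0.

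Levels of different genes were compared as TPM, an abundance scaled to transcript length and to the library's sum. Mmp14 ranked first and Mmp2 second of the 9 in every library, and together they made up 77.3% and 79.1% of the 9 genes' summed TPM in the Mmp3-negative and 85.5% and 82.1% in the Mmp3-positive libraries. Both statements depend on which transcripts are summed, because short retained-intron and other non-coding transcripts add much TPM per count. From transcripts annotated as protein-coding alone, the pair held 90.8% and 91.6% in the Mmp3-negative and 88% and 89.4% in the Mmp3-positive libraries, so the groups stood in the opposite order. By coding TPM Mmp14 and Mmp2 were both at 201 in Mmp3-negative replicate 1, and Mmp2 (407) was above Mmp14 (404) in Mmp3-positive replicate 1. Mmp19 was next after them by coding TPM in every library, at 15.6 and 31.7 in the Mmp3-negative and 65.3 and 66.1 in the Mmp3-positive libraries. Summed over all transcripts, in the Mmp3-positive group the order of TPM levels was Mmp14 (440.3 ± 10.2), Mmp2 (408 ± 7.78), Mmp19 (73.5 ± 0.383), Mmp23 (57.9 ± 22.4) and Mmp11 (24.1 ± 0.276; SD, n = 2 for each). Mmp19 and Mmp23 were neighbours that did not differ beyond their spread, and by coding TPM Mmp23 stood at 16.7 and 0. Mmp9 (6.57 ± 7.27), Mmp15 (1.46 ± 1.29) and Mmp17 (1 ± 0.508) were lower and overlapped, with a different order in each library. Mmp16 was last at 0.0104 ± 0.0147 TPM.

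In the Mmp3-negative group, again over all transcripts, Mmp14 stood at 342 ± 149.6 TPM and Mmp2 at 276 ± 106 TPM, which did not differ beyond their spread. Both spreads held the lower TPM of Mmp3-negative replicate 1, described below. Within the libraries Mmp2 was at 0.852 and 0.784 times the Mmp14 level, so Mmp14 was above Mmp2 in both. Mmp23 came next at 94.6 ± 76.9 TPM, ahead of Mmp19 at 32.4 ± 1.05 TPM, again within the spread. This order turned by coding TPM, where Mmp23 stood at 14 and 17.9, below Mmp19 in both libraries. In Mmp3-negative replicate 2 the retained-intron transcript Mmp23-202, of 513 bases, held 115 of the 149 TPM of Mmp23. Mmp17, Mmp11 and Mmp9 followed at 18.1 ± 22.1, 13.7 ± 11.7 and 9.70 ± 5.88 TPM, 3 neighbours whose spreads also overlapped. By coding TPM Mmp17 stood at 2.19 and 2.46, Mmp11 at 5.41 and 10.2 and Mmp9 at 1.56 and 5.54. The summed TPM of the 9 genes was 565 in Mmp3-negative replicate 1 and between 991 and 1035 in the other 3 libraries. That library's lower TPM was also seen where counts were not lower: the full-length transcript Mmp2-201 had 14428.0 estimated counts and 201 TPM there, against 13110.6 counts and 342.9 TPM in Mmp3-negative replicate 2, at an effective length of 2906 bases in both. TPM values are therefore used below only within a library or as levels, apart from the limma fits on TPM among the alternative analyses. The edgeR and DESeq2 tests use counts.

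**Figure D2:**
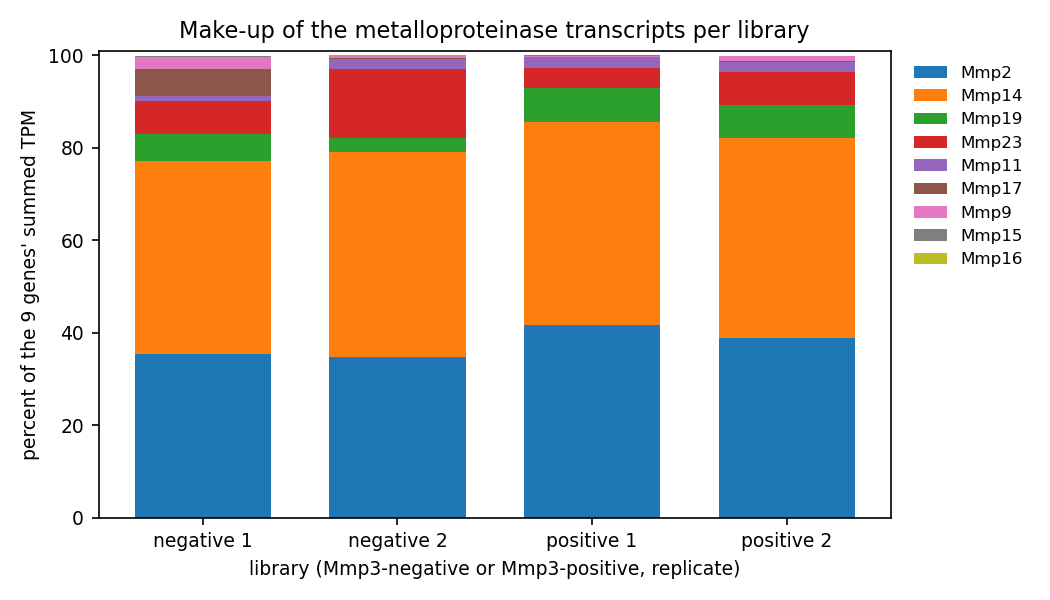
Share of the summed TPM of the 9 genes that each gene held (percent, stacked bars), 1 bar per library. All annotated transcripts are summed. Mmp2 and Mmp14 together hold 77.3% to 85.5% of every bar, and the Mmp19 share is 5.86% and 3.14% in the Mmp3-negative and 7.44% and 7.07% in the Mmp3-positive libraries.

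The gelatinases differ in their usual cell sources: Mmp2 (gelatinase A) is made constitutively by fibroblasts and other mesenchymal cells, and Mmp9 (gelatinase B) is best known from neutrophils and macrophages. The Mmp2 gene lies on chromosome 8 from 92827291 to 92853420. Its CPM was 778 and 761 in the Mmp3-negative and 921 and 996 in the Mmp3-positive libraries. Both Mmp3-positive libraries were above both Mmp3-negative ones, and the difference was small, 1.25-fold (log2 fold change 0.32, standard error 0.14). In edgeR it was not called (adjusted p = 0.61). Nearly all Mmp2 counts, 99.1% to 100% in the 4 libraries, lay on Mmp2-201, the transcript with the complete coding sequence of 1986 bases.

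Mmp9 (chromosome 2, 164940780 to 164955850) stood at 13.6 and 12.6 CPM in the Mmp3-negative libraries and at 3.32 and 10.5 CPM in the Mmp3-positive ones. The Mmp3-positive libraries were lower, but they lay further from each other than the higher of them lay from the Mmp3-negative pair. The log2 fold change was -0.93 with a standard error of 1.18 (edgeR adjusted p = 0.998). It was -0.32 without Mmp3-positive replicate 1 and -1.99 without Mmp3-positive replicate 2. The counts behind these values were 253, 219, 63 and 206. In Mmp3-negative replicate 1 only 45.9% of them lay on transcripts annotated as protein-coding. Among the cell types known for Mmp9, macrophage markers were lower in the Mmp3-positive libraries, as given above, and the neutrophil marker sum was between 0.0539 and 7.74 CPM over the 4 libraries. Their part was not tested. By TPM, Mmp2 exceeded Mmp9 by 14.5-fold and 63.3-fold in the Mmp3-negative and by 290.1-fold and 34.4-fold in the Mmp3-positive libraries. By coding TPM these ratios were 129 and 61.9 against 286 and 50.2, so the 14.5 of Mmp3-negative replicate 1 rested on its non-coding Mmp9 transcripts.

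Among the membrane-type enzymes, Mmp14, Mmp15 and Mmp16 cross the membrane and Mmp17 is held by a lipid anchor. Mmp14 (MT1-MMP; chromosome 14, 54431612 to 54445364) stood at 696 and 792 CPM in the Mmp3-negative and 787 and 917 CPM in the Mmp3-positive libraries. The groups overlapped, and the log2 fold change of 0.20 (standard error 0.16) was not called (adjusted p = 0.93 in edgeR). Mmp14-201 held 93.1% to 96.7% of its counts in each library. The retained-intron transcript Mmp14-205 held 4.98% and 5.58% in the Mmp3-negative and 2.91% and 2.18% in the Mmp3-positive libraries. This small share was lower in both Mmp3-positive libraries, and the difference was not tested.

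Mmp15 (MT2-MMP; chromosome 8, 95352268 to 95375080) had 263 and 0 counts in the Mmp3-negative and 173 and 47 in the Mmp3-positive libraries, or 14.2, 0, 9.10 and 2.39 CPM. The 0 allows up to 0.173 CPM at 3 counts, by counting error alone. Libraries of the same group thus differed more than the groups did, and the log2 fold change of -0.30 had a standard error of 2.53 (edgeR adjusted p = 0.999). Mmp16 (MT3-MMP; chromosome 4, 17852893 to 18119145) had 2 and 30 counts in the Mmp3-negative and 1 and 0 in the Mmp3-positive libraries and did not pass the filter. It was not called in any of the 5 alternatives that held it, such as the one with no count filter (adjusted p 0.698 to 1).

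Mmp17 (MT4-MMP; chromosome 5, 129584169 to 129611099) stood at 38.2 and 11.7 CPM in the Mmp3-negative and at 3.11 and 7.38 CPM in the Mmp3-positive libraries. Both Mmp3-positive libraries were lower, and Mmp3-negative replicate 1 stood apart above the rest. The log2 fold change was -2.25 with a standard error of 1.04 (edgeR adjusted p = 0.642). In Mmp3-negative replicate 1, 52.2% of the Mmp17 counts lay on Mmp17-202, a retained-intron transcript of 646 bases that had 0 counts in the other 3 libraries. Its 708 counts gave 33.8 TPM there, of which 31.56 lay on that transcript. Without that library the log2 fold change was -1.16, without Mmp3-negative replicate 2 it was -2.86, without Mmp3-positive replicate 2 it was -3.01, and with protein-coding transcripts alone it was -1.55. With an offset for the average transcript length of each gene it was -4.74.

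Mmp11 (stromelysin-3; chromosome 10, 75923222 to 75936496) is a secreted enzyme of connective tissue cells that furin activates inside the cell. It stood at 3.67 and 18.0 CPM in the Mmp3-negative and at 30.9 and 34.1 CPM in the Mmp3-positive libraries. Both Mmp3-positive libraries were higher and close to each other, while the Mmp3-negative libraries were far apart. The means differed by 2.99-fold (log2 fold change 1.58 with a standard error of 0.89, adjusted p = 0.779 in edgeR). Without Mmp3-negative replicate 2 the log2 fold change was 3.15 and Mmp11 was called higher (edgeR adjusted p = 0.0439). Without Mmp3-negative replicate 1 it was 0.84 and was not called (0.474), and with the length offset it was 0.77.

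The Mmp11 counts of Mmp3-negative replicate 1 were also divided differently among transcripts. There 97.9% of its 68 counts lay on Mmp11-206, a transcript with a coding sequence of 111 bases that lacks the zinc-binding stretch shown above. Of the transcripts with the complete coding sequence of 1476 bases, Mmp11-202 held 2.13% and 69.5% of the counts in the Mmp3-negative libraries, against 26.0% and 60.2% in those positive for Mmp3. The other, Mmp11-201, held 0% and 0% against 68.0% and 34.6%. The gene overlaps Chchd10, a mitochondrial protein gene on the opposite strand, over 3367 bases. Chchd10 had 250 and 41 counts in the Mmp3-negative and 3 and 60 in the Mmp3-positive libraries. Whether the counting used strand is not stated in the labels, and the part of this overlap was not tested.

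Mmp19 (chromosome 10, 128790910 to 128800824) is a secreted enzyme that cleaves basement membrane and other matrix proteins. It stood at 47.2 and 62.3 CPM in the Mmp3-negative and at 132 and 172 CPM in the Mmp3-positive libraries. Each Mmp3-positive library was more than 2-fold above each Mmp3-negative one, and the means differed by 2.77-fold. The log2 fold change was 1.47 with a standard error of 0.28, rank 41 by p among all genes, and it did not pass the threshold in edgeR (adjusted p = 0.48). The DESeq2 Wald test gave 1.43 and called it higher (adjusted p = 9.82e-06). In edgeR it was called higher without Mmp3-negative replicate 2 (1.69, adjusted p = 0.0223). It was not called without Mmp3-negative replicate 1 (1.28, 0.0597), and in the 14 alternatives the log2 fold change lay between 0.87, with the length offset, and 1.69.

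The kallisto estimates divided its counts between Mmp19-201, of 3402 bases with a coding sequence of 1581 bases, and Mmp19-203, of 2236 bases with a coding sequence of 1365 bases. Both hold the zinc-binding stretch. Mmp19-201 held 0.378% and 56.5% of the counts in the Mmp3-negative and 54.7% and 84.5% in the Mmp3-positive libraries. Mmp3-negative replicate 1 stood apart with 3.3 counts on Mmp19-201 and 793.9 on Mmp19-203, and Mmp3-positive replicate 2 had 2853.5 and 502.3. Mmp3-negative replicate 2 and Mmp3-positive replicate 1 had nearly the same division, so it did not follow the groups. On the opposite strand Mmp19 overlaps Tmem198b over 789 bases. The antisense gene Gm47093 covers all 9915 bases of Mmp19 on that strand, and 0 of its transcripts are in the deposited tables. Tmem198b had 186 and 432 counts in the Mmp3-negative and 566 and 924 in the Mmp3-positive libraries, and the part of these overlaps was not tested.

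Mmp23 (chromosome 4, 155650655 to 155653384) is an unusual member that is anchored by its amino-terminal end and lacks the hemopexin domain of most MMPs. It stood at 48.9 and 51.7 CPM in the Mmp3-negative and at 24.9 and 32.7 CPM in the Mmp3-positive libraries. The Mmp3-negative libraries were nearly equal and both Mmp3-positive libraries were below them, by 1.75-fold on average. The log2 fold change of -0.80 (standard error 0.38) was not called (adjusted p = 0.652 in edgeR).

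For Mmp23 the annotated coding transcript held a minority of the counts in all but 1 library. Mmp23-201 held 48.0% and 33.2% in the Mmp3-negative and 65.8% and 0% in the Mmp3-positive libraries, and 3 retained-intron transcripts held the remainder. In Mmp3-positive replicate 2 the 642 counts lay on Mmp23-202 (49.4%), Mmp23-204 (49.1%) and Mmp23-203 (1.56%). The coding transcript had 435.0, 297.8, 311.4 and 0 counts in the same order of libraries, not scaled to library size. Mmp3-positive replicate 2 thus had no count on the coding transcript, although its gene-level 32.7 CPM was above the 24.9 CPM of Mmp3-positive replicate 1. With protein-coding transcripts alone the log2 fold change of Mmp23 was -1.35 with a standard error of 2.39.

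**Figure D3:**
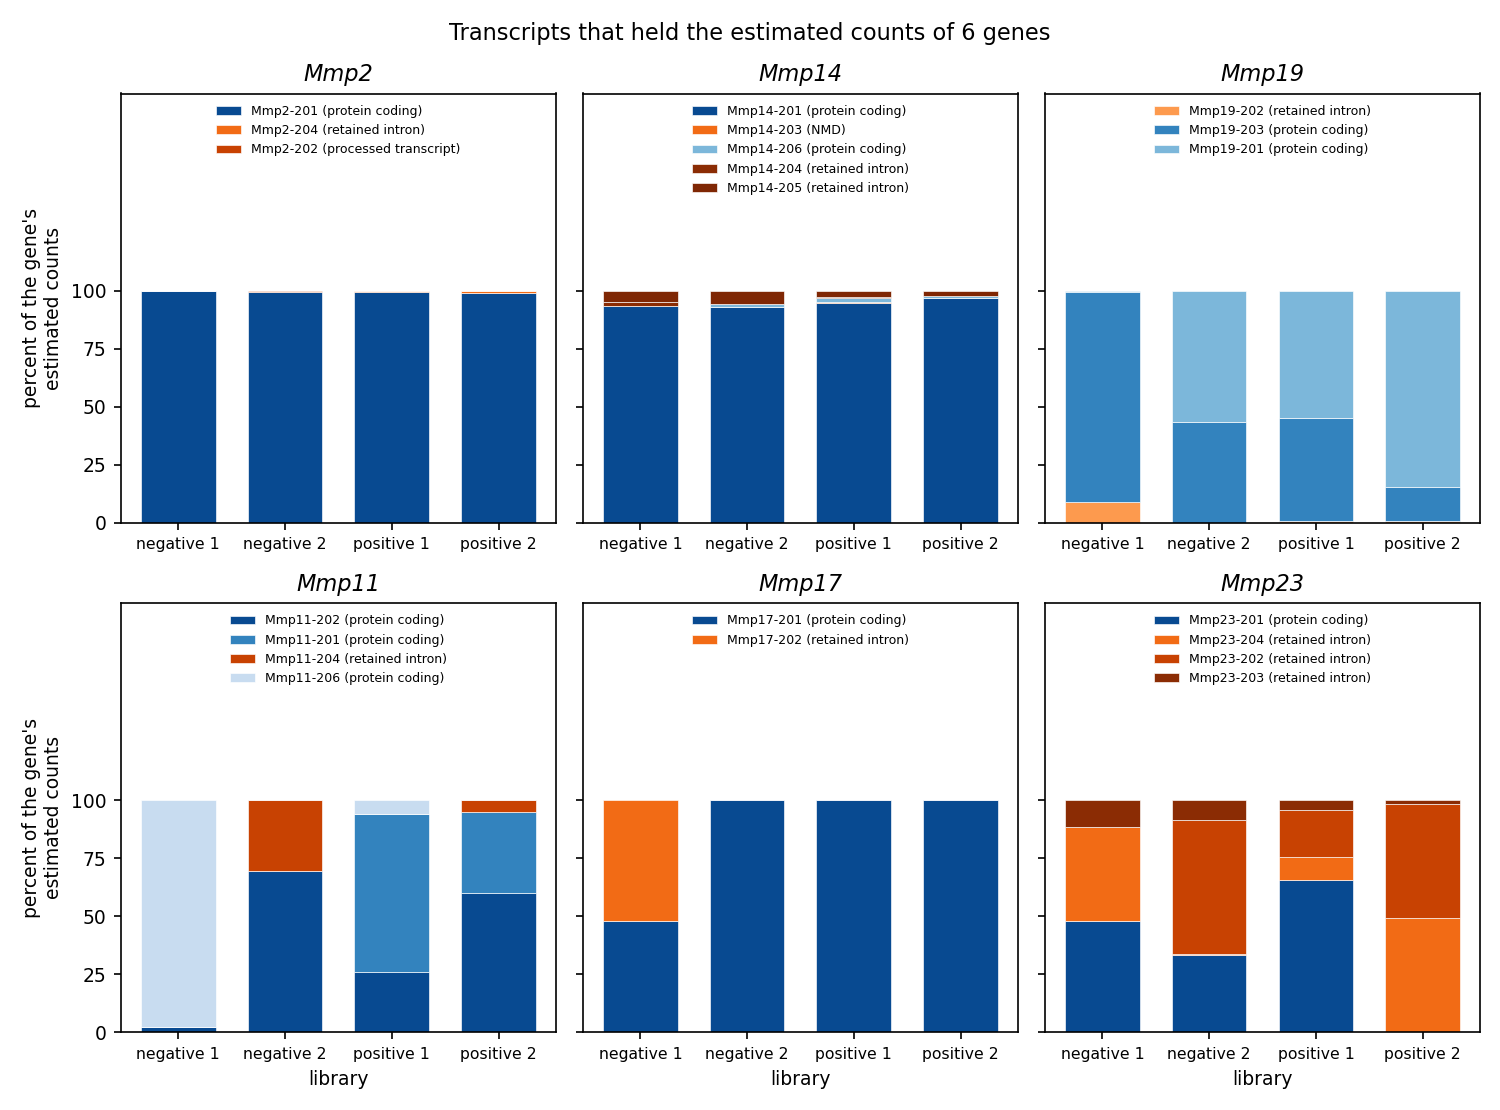
Percent of each gene's estimated counts on each annotated transcript, 1 stacked bar per library, for 6 of the genes, with protein-coding transcripts in blue and the others in orange to brown. Mmp2 and Mmp14 rest on a single coding transcript in every library, while the division within Mmp19, Mmp11, Mmp17 and Mmp23 differs between libraries of the same group.

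**Figure D4:**
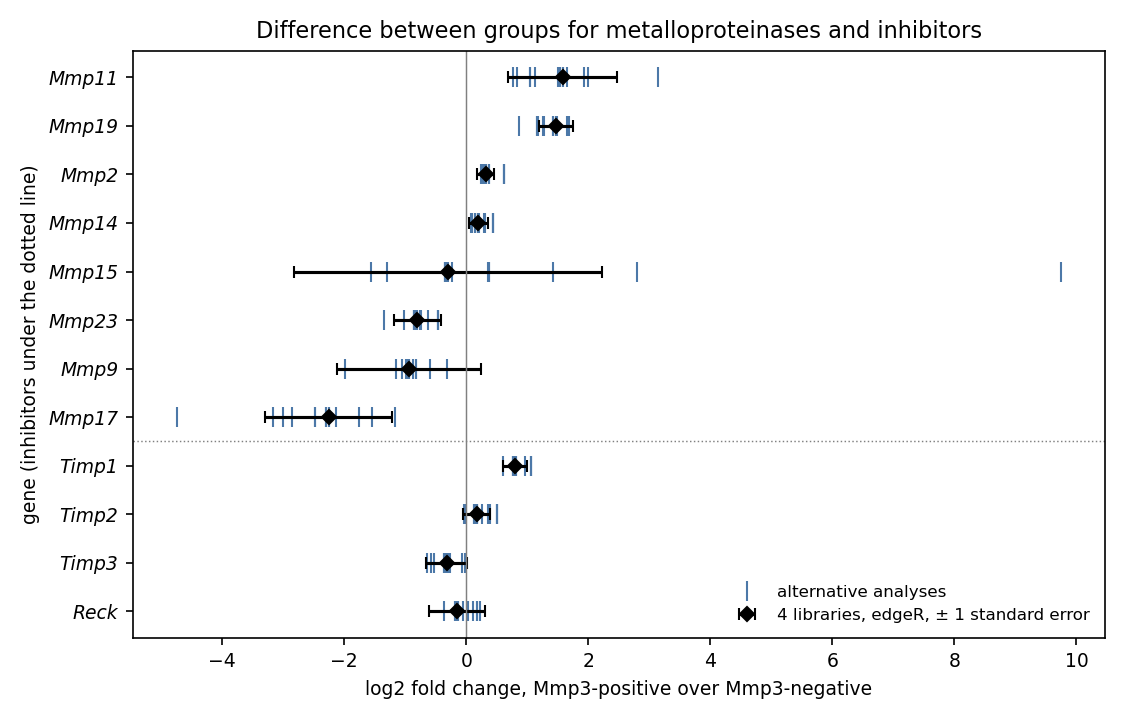
Log2 fold change, Mmp3-positive over Mmp3-negative, of the 8 tested genes and of 4 inhibitor genes: black diamonds with bars of 1 standard error are the edgeR values with 4 libraries, and blue ticks are the alternative analyses. Mmp19 and Mmp11 lie above 0 and Mmp23, Mmp9 and Mmp17 below 0 in every analysis, while Mmp15 runs from -1.56 to 9.74.

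The inhibitors were the 4 Timp genes, which encode the tissue inhibitors of metalloproteinases, and Reck, a membrane-anchored inhibitor. Of these 5 genes, 4 were tested, 0 were called by edgeR (1 had an unadjusted p under 0.05, Timp1, beside 8.87% of all genes) and their median log2 fold change was 0.01. Timp1 stood at 244 and 236 CPM in the Mmp3-negative and 471 and 366 CPM in the Mmp3-positive libraries, without overlap (log2 fold change 0.80, edgeR adjusted p = 0.48), and the DESeq2 Wald test called it higher (adjusted p = 0.000293). Timp2, the partner of Mmp14, stood at 306 and 404 against 346 and 455 CPM, with overlapping groups. By TPM the ratio of Timp2 to Mmp14 was 0.61 and 0.725 in the Mmp3-negative and 0.615 and 0.782 in the Mmp3-positive libraries, so the balance of this pair overlapped between the groups. Timp3 stood at 105 and 70.8 against 56.4 and 84.1 CPM and Reck at 26.7 and 36.8 against 29.2 and 28.2 CPM. Timp4 had 3 and 134 counts against 1 and 1, and was not tested.

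Of 12 genes for activation and docking of MMPs, 11 were tested and 0 were called by edgeR (2 had an unadjusted p under 0.05, beside the same 8.87%), with a median log2 fold change of 0.23. Lrp1, an endocytic receptor that clears Mmp2 and Mmp9 from the medium, stood at 7365 and 8372 against 9016 and 9844 CPM. Furin, the convertase that removes the prodomain of Mmp11 and Mmp14, stood at 403 and 489 against 519.9 and 527 CPM. Cd44, a hyaluronan receptor that binds Mmp9 and Mmp14, stood at 313 and 326 against 311 and 297 CPM. Pcsk6, another convertase, stood at 19.9 and 62.9 against 9.84 and 19.0 CPM (log2 fold change -1.52, edgeR adjusted p = 0.681), and was at -0.46 without Mmp3-negative replicate 2 and -2.13 without Mmp3-negative replicate 1. Plg, the gene of plasminogen, which is made in the liver, had 0 counts in all 4 libraries.

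Of 16 genes for proteins that gelatinases are known to cut, 16 were tested and 0 were called by edgeR (7 had an unadjusted p under 0.05, beside 8.87% of all genes), with a median of 0.10 and a range from -4.26 to 0.86. Col4a1, a chain of the basement membrane collagen, stood at 3275 and 3664 against 5664 and 6331 CPM, without overlap (log2 fold change 0.79, adjusted p = 0.48 in edgeR). The DESeq2 Wald test called it higher (2.22e-05), as did edgeR without Mmp3-negative replicate 1 (0.0104) or 2 (0.00518). Col1a1 stood at 5798 and 9317 against 6478 and 9772 CPM and Col1a2 at 3728 and 6014 against 4690.5 and 6772 CPM, both with overlapping groups. Lama5, a laminin chain of vascular and epithelial basement membranes, had the lowest log2 fold change of the list, with 194 and 212 against 15.5 and 5.65 CPM (edgeR adjusted p = 0.255). It was called lower by the DESeq2 Wald test (1.13e-19), in edgeR with no count filter (0.000902), and in edgeR without Mmp3-negative replicate 1 (0.00119), Mmp3-negative replicate 2 (0.0027) or Mmp3-positive replicate 1 (-5.17, 0.0257). It was not called without Mmp3-positive replicate 2 (-3.71, 0.0819), with the length offset (-2.33, 0.729) or in limma on TPM (-2.43 to -3.03, 0.737 to 0.779), nor in the remaining alternatives. The mural and endothelial marker sums were lower in the same libraries, and their part in the Lama5 value was not tested.

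Of the 14 other MMP genes, 9 were tested and 1 was called by edgeR, Mmp3 itself. By TPM, Mmp3 was at 0.243 and 0.301 times the Mmp2 level in the Mmp3-negative libraries and at 7.95 and 5.98 times that level in the Mmp3-positive ones. Mmp27, a neighbour of Mmp3 in the chromosome 9 cluster, had 0 and 37 counts against 536 and 605, and was not called (log2 fold change 4.78, edgeR adjusted p = 0.565). It was called higher by the DESeq2 Wald test (0.0183) and in edgeR without Mmp3-negative replicate 1 (3.78, 0.0317) or 2 (12.14, 0.00302), the last against a library with 0 counts. Mmp10, Mmp12 and Mmp13 were also tested and not called by edgeR. Mmp10 had 1 and 0 counts against 34 and 34 (log2 fold change 5.70). Mmp12 had 54 and 186 against 23 and 40 (-2.07), and Mmp13 had 167 and 0 against 97 and 44 (-0.29). Mmp21, Mmp24, Mmp25 and Mmp28 also lie outside the chromosome 9 cluster but are not among the 9. None of them reached more than 294 counts in any library, and none was called.

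The genes whose pattern over the 4 libraries was nearest to those of Mmp14 and Mmp2 were found by the root mean square difference of log2 CPM after subtracting each gene's mean. For Mmp14 they were 2810004N23Rik (0.005), Psma7, a proteasome subunit (0.012), and Vim, the intermediate filament vimentin (0.016). For Mmp2 they were Atp13a1, a transporter of the endoplasmic reticulum (0.012), Xdh, xanthine dehydrogenase (0.015), and Wiz, a chromatin protein (0.018). Of 9790 genes compared, 271 lay within 0.1 of Mmp14 and 262 within 0.1 of Mmp2, so with 4 libraries many genes have nearly these patterns.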

How the data were processed

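Per the submitters' processing notes, the authors quantified reads with kallisto 0.45.0 on GRCm38. The deposited tables give, per the file headers, an estimated count and a TPM value for each of 115270 transcripts per library. The labels' protocols name an FFPE (fixed, embedded tissue) RNA kit, ribosomal RNA depletion and strand-specific libraries. The transcript set and the strand setting are not stated there.

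Of these transcripts 113580 matched GENCODE M21 genes by identifier. Those without a match were left out and held 0.729% to 2.08% of the estimated counts per library. Sums of estimated counts over each gene's transcripts were rounded, filtered with filterByExpr (minimum count 10), scaled by TMM and tested with edgeR 4.0.16 (quasi-likelihood, two-sided, no covariate, R 4.3.3), with Benjamini-Hochberg adjustment over 14185 genes and a threshold of 0.05. The standard error was taken as the absolute log2 fold change divided by the root of F. The fit was checked on simulated counts. Alternatives used DESeq2 1.42.0, limma 3.58.1 on log2(TPM + 1) and log2(TPM + 0.1), other scalings, filters and designs, and left-out libraries. On the log2(value + pseudocount) scale low genes' changes are understated. Counting limits cover counting error only.

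The members and lists were chosen with earlier results of these data known. The named genes were all 9 members, Mmp3 and tested MMPs, the 5 inhibitors, and, from the activation and substrate lists, genes past the threshold, the 3 most abundant and those with an absolute log2 fold change of at least 1. The rule also held the 2 most abundant tested genes of each marker list, which are not printed as markers. The markers named for 0 counts, and Plg, were chosen after their values were seen. Adipocyte, Schwann and mesothelial markers were summed too: 18.4 to 34.3, 16.5 to 54.5 and 3.87 to 22.5 CPM over the 4 libraries. Sums used pandas 2.3.3 (Python 3.11.15) and plots matplotlib 3.10.9.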

Additional observations from a re-analysis of the deposited data

How the results depend on the processing

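Of the 8 tested members, 7 kept their direction in all 14 alternatives. Mmp15 (-0.30) was 2.80 with a replicate block on set number, 0.37 with limma on log2(TPM + 1) (also 0.37 with no filter), 1.43 with log2(TPM + 0.1), and -1.56 to 9.74 on leaving out each library in turn, the highest against a group with 0 counts. The cause of each change was not tested. Members called higher numbered 1 with the DESeq2 Wald test and 0 to 2 on leaving out a library, and members called lower 0 throughout. Their median of -0.05 was 0.40 (both filters) and 0.53 in the TPM fits, which moved the median of all genes by 0.22 to 0.35, and -0.23 to 0.21 on leaving out a library.

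All genes called higher and lower numbered 4 and 23 unfiltered, 775 and 593 by DESeq2's Wald test, 1 and 0 when transcript length was an offset (1183 genes at an unadjusted p under 0.05), 0 and 0 in the limma TPM fits (1064 to 1163 genes), and 1 to 237 and 1 to 116 without a library, where either Mmp3-negative library gave the large counts. With protein-coding transcripts only, an alternative chosen after seeing the data, they were 1 and 0. The replicate block gave 1 and 4, and the correlation of same-numbered deviations was 0.0261 over genes, with 2 pairs. Scaling by DESeq2 size factors gave 1 and 2, as did testing protein-coding genes only. Mmp3 was not called in the limma TPM fits (5.27 to 5.29, adjusted p 0.402 to 0.737). Where 1 library was left in a group, it was assumed to vary like the others. The pairs were not alike in this, with a median absolute log2 difference of 0.795 for Mmp3-negative and 0.501 for Mmp3-positive.

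Of the other genes none of those that turned had been called. Reck (-0.15) was 0.18 with log2(TPM + 1) under both filters, 0.22 with log2(TPM + 0.1), 0.031 with protein-coding transcripts and -0.37 to 0.11 without a library. Cd44 was 0.12 in the TPM fits. Leaving out a library gave -0.044 to 0.39 for Timp2, -0.23 to 0.49 for Col1a1 and -0.074 to 0.62 for Col1a2. Depth limits Mmp16, with 0 to 30 counts per library.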
